A study of Drosophila melanogaster with 12 samples.

Results

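The 6 genes described here carry fly visual chromophore metabolism: santa-maria and ninaD for carotenoid uptake, ninaB for cleavage, ninaG for oxidation of the product, and rdhB and pinta for handling of retinoids in the visual cycle. They were chosen by FlyBase symbol from the 17737 genes of the count table, and all 6 were present and passed the filter on low counts in each fit. The study sequenced RNA of whole heads from 4 groups, with 3 libraries per group and 12 in all. In the neuron-specific knockdown, elav-GAL4, a driver active in neurons, was crossed to an RNAi line against PIG-A, the catalytic subunit of the enzyme that starts GPI anchor synthesis. In the glia-specific knockdown, the same RNAi line was crossed to repo-GAL4, a driver active in glia. Control heads came from each driver crossed to the empty AttP40 site, so both groups of a comparison carried the driver. They differed in the RNAi insertion and in at least 1 further respect, since mthl8, a methuselah-like receptor gene, had 120 to 231 counts in each of the 6 control libraries and 0 in each of the 6 knockdown libraries. RNAi and genetic background therefore cannot be told apart. The labels give adult flies aged 3 to 5 days, kept at 25 degrees with 12 h of light, with 5 to 10 heads in each library, whereas the methods give male flies at an age of 3 days and 10 heads. The heads were not sorted, so a value is a mean over retina, brain, glia, fat body and muscle, and fewer cells of a type and less RNA per cell cannot be told apart.

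Animals cannot make retinoids from scratch and take up carotenoids from food. In flies, the CD36-type scavenger receptors NinaD and Santa-maria bring carotenoids into cells, and the single carotenoid oxygenase NinaB cleaves and isomerizes them to retinal. NinaG, an oxidoreductase, is needed to form the 3-hydroxyretinal that fly rhodopsins carry. Light turns the bound chromophore over, and in retinal pigment cells the retinoid-binding protein PINTA and the retinol dehydrogenases RDHB and PDH take part in making it afresh.

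rdhB stood higher in the knockdown heads of both drivers, and its level in every knockdown library lay above that in every control library of its driver. ninaG stood lower in the glia-specific knockdown and not in the neuron-specific one. pinta differed between the control heads of the drivers. ninaB and santa-maria had means above those of the controls in both knockdowns by less than 1.5-fold, and ninaD was set apart by a single library in each of 2 groups.

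Levels are given as CPM (counts scaled to a common library size) after TMM scaling over the 12 libraries. A fold change is that of edgeR's quasi-likelihood fit of the 6 libraries of a driver, with its standard error (SE). To be called, a gene had to change by 1.5-fold or more with a Benjamini-Hochberg adjusted p, taken over every gene tested, no higher than 0.05. The gene list was selected on earlier results of these libraries in which rdhB stood out, so the rdhB values are given as a description with no test. An SE of rdhB shows the spread of its libraries and does not allow for that choice. For the other 5 genes the adjusted p is that of the fit of all genes.

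Depth ranged from 20694850 to 31893782 counts, and a count of 3 corresponded to between 0.0941 and 0.145 CPM. PIG-A itself was at 3.61 to 5.18 CPM in the elav control heads and at 2.55 to 3.04 CPM in the neuron-specific knockdown, a log2 fold change of -0.55 (SE 0.20) with an edgeR adjusted p of 0.284. In the repo heads it was at 4.85 to 4.93 CPM in the controls and 3.98 to 5.22 CPM in the knockdown, with a log2 fold change of -0.04 (SE 0.16). The repo groups overlapped, so the knockdown was not visible in whole-head RNA for that driver. Photoreceptor, neuron and glia markers were present in all 12 libraries. The yolk protein genes Yp1, Yp2 and Yp3, which females express, summed to 41890 to 187500 CPM, and the male RNAs roX1 and roX2 to 1.54 to 7.53 CPM, which goes against heads of males only. 2 libraries stood apart from the other 10, replicate 3 of the neuron-specific knockdown and replicate 3 of the repo controls. In them 9 muscle genes summed to 17110 and 18160 CPM, against 3205 to 5120 CPM in the others. They also had less roX RNA, at 1.54 and 2.15 CPM against 4.75 to 7.53 CPM. Their neuron markers were higher, at 3750 and 3493 CPM against 2450 to 3158 CPM, and their rhodopsin list sums were the lowest, at 17270 and 22230 CPM. High muscle genes is used below as a name for these libraries, not as their only difference.

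**Figure D1:**
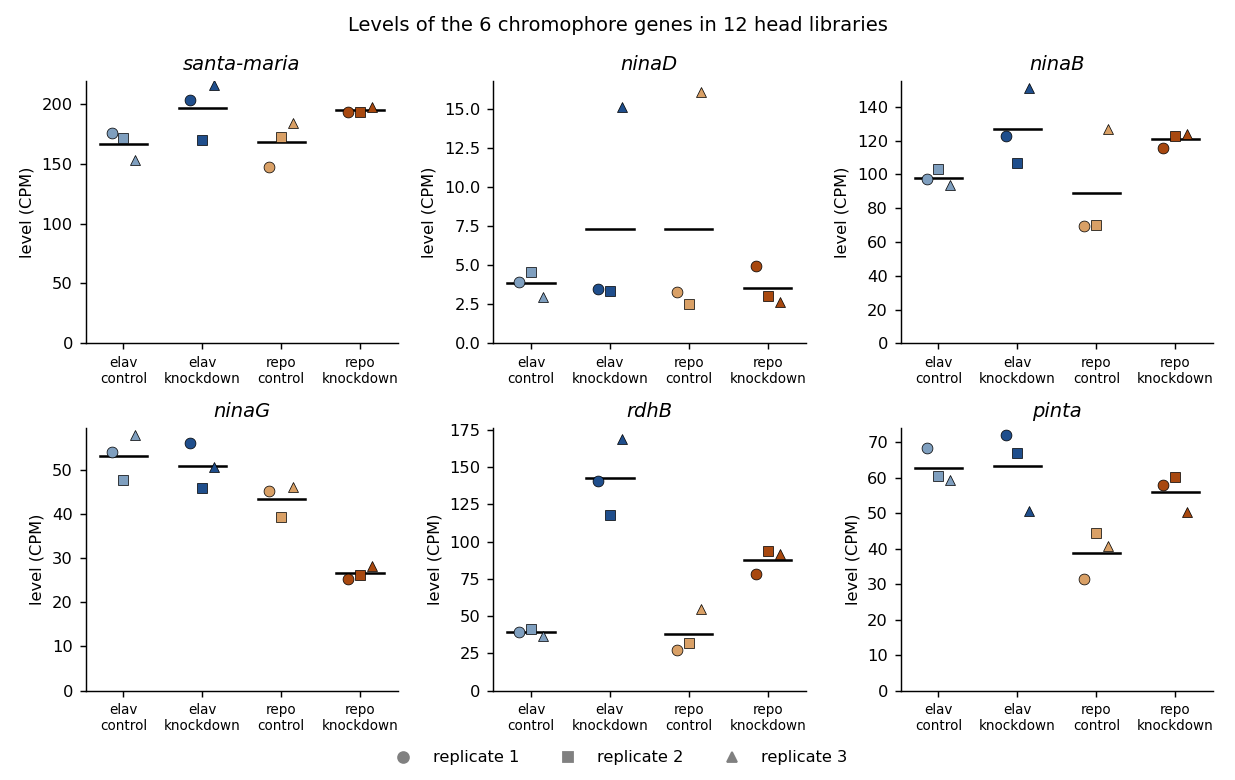
Level in CPM (linear axis from 0) of each of the 6 genes in the 12 head libraries, with circles, squares and triangles for replicates 1, 2 and 3 and a line at the mean of the 3 libraries of a group. The 3 knockdown points of rdhB lie above the 3 control points for both drivers, the glia-specific knockdown points of ninaG lie below all other points, and ninaD reaches 15.2 and 16.1 CPM in 1 library each of the elav knockdown and the repo control groups.

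Per kilobase of exon, which allows a comparison between genes, the median level over the 12 libraries was 56.8 CPM per kb for rdhB, 51.4 for ninaB, 43.7 for pinta, 32.3 for santa-maria, 23.7 for ninaG and 1.91 for ninaD. Of these, ninaD alone lay in the lower part of the genes in the 12-library fit, at percentile 22.4, and the other 5 lay at percentiles 71.5 to 90.3. rdhB also spanned a wide range, with a highest library 6.22 times its lowest, against 6.44 times for ninaD and 1.46 times for santa-maria. In the elav control heads the order was pinta, ninaB, rdhB, santa-maria, ninaG and ninaD, and the libraries of pinta and ninaB overlapped, as did those of santa-maria and ninaG. rdhB, at 33.5 ± 1.95 CPM per kb (SD, n = 3), ranked below pinta and ninaB there. In the neuron-specific knockdown rdhB was first at 122 ± 21.9 CPM per kb (SD, n = 3), with no overlap with ninaB at 58.6 ± 10.4. In the repo control heads the libraries of each of the 4 highest genes overlapped those of the next, with ninaB and rdhB on top. In the glia-specific knockdown rdhB was first at 75.1 ± 7.21 CPM per kb (SD, n = 3) and no neighbours in the order overlapped.

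santa-maria (FBgn0025697; BDGP Release 6, chromosome 2L, 7445355 to 7451244, minus strand) encodes the scavenger receptor known from neurons and glia of the head, outside the retina. In the elav control heads it was at 175.5, 171.4 and 152.9 CPM, and in the neuron-specific knockdown at 202.7, 169.8 and 215.4 CPM. The second knockdown library fell within the range of the controls. The log2 fold change was 0.23 (SE 0.11), with an edgeR adjusted p of 0.408. The repo control heads had 147.5, 172.2 and 183.6 CPM, the glia-specific knockdown 192.8, 193.2 and 197.3 CPM, so that the groups did not overlap. Their log2 fold change was also 0.23 (SE 0.12), with an adjusted p of 0.289. Of 7 glia markers, 6 were higher in the glia-specific knockdown too, with a median of 0.23, and the list summed to 2041 to 2757 CPM in the repo controls and 2533 to 2761 CPM in the knockdown. alrm, an astrocyte gene, was the 1 of the 7 called, against 3.60% of all genes, at 0.64 (SE 0.13, edgeR adjusted p 0.0444). moody, named after its values were seen, had 0.57 (SE 0.09, adjusted p 0.0217), under the fold threshold. At an unadjusted p under 0.05 there were 3 of the 7 glia markers, against 22.3% of all genes. The part of glial RNA in the santa-maria value was not tested. Its exons share 528 bases with CG5973 on the opposite strand, and without a stated strand setting in the counting the reads of both there cannot be told apart. CG5973 had log2 fold changes of 0.17 and 0.01 in the neuron-specific and glia-specific knockdowns and was called in neither.

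ninaD (FBgn0002939; chromosome 2L, 18081628 to 18083608, plus strand) encodes the other scavenger receptor, known for carotenoid uptake in the midgut. It was the least abundant of the 6, with 60 to 434 counts in a library. In the elav control heads it was at 3.92, 4.60 and 2.99 CPM and in the neuron-specific knockdown at 3.46, 3.37 and 15.2 CPM. The repo control heads had 3.29, 2.50 and 16.1 CPM, the glia-specific knockdown 4.96, 3.01 and 2.66 CPM. The high values were those of the 2 libraries with high muscle genes, and the other 10 libraries lay between 2.50 and 4.96 CPM. The log2 fold change was 0.91 (SE 0.59, adjusted p 0.526 by edgeR) in the neuron-specific knockdown and became -0.19 without knockdown replicate 3. In the glia-specific knockdown it was -1.02 (SE 0.70, adjusted p 0.440 by edgeR) and became 0.31 without control replicate 3. Both directions thus rested on 1 library each. Of 10 midgut genes, 2 passed the filter, and the list summed to between 8.61 and 88.6 CPM. The part of muscle or midgut RNA in the ninaD values was not tested.

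**Figure D2:**
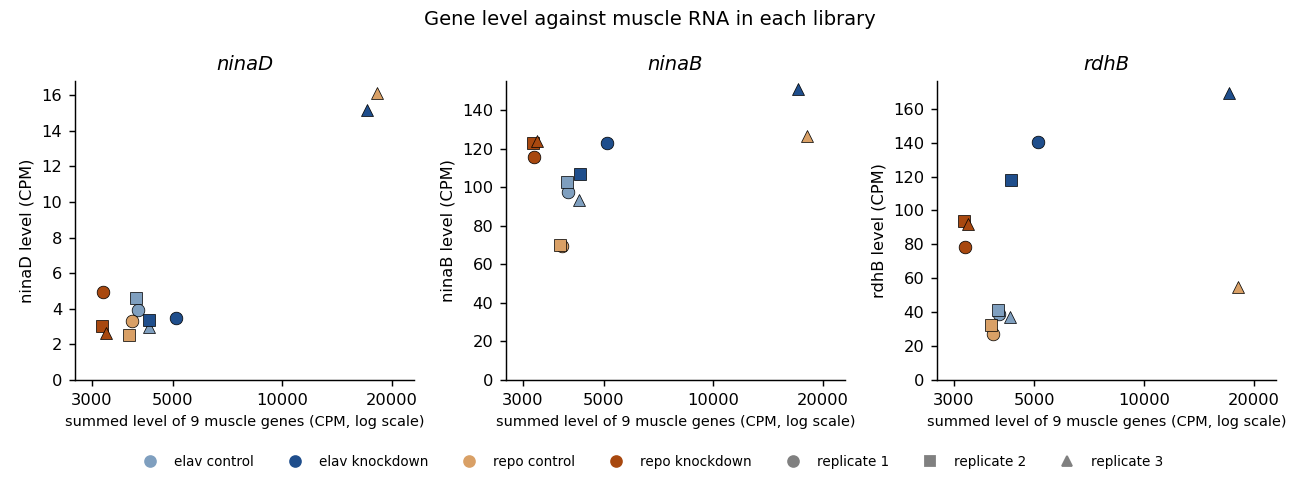
Level in CPM (linear axis) of ninaD, ninaB and rdhB in each library against the summed level of 9 muscle genes in CPM (log axis), with colour for the group and symbol for the replicate. The 2 libraries at the right, at 17110 and 18160 CPM of muscle genes, hold the 2 high values of ninaD, while rdhB there is at 169.2 CPM in the elav knockdown and 54.6 CPM in the repo control library.

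ninaB (FBgn0002937; chromosome 3R, 13700565 to 13703164, plus strand) encodes the enzyme that makes retinal from carotenoids. It was at 97.5, 102.9 and 93.6 CPM in the elav control heads and at 122.8, 106.7 and 151.1 CPM in the neuron-specific knockdown, and the groups did not overlap. The log2 fold change was 0.36 (SE 0.13), with an edgeR adjusted p of 0.281. In the repo control heads it was at 69.6, 70.1 and 126.9 CPM, whereas the glia-specific knockdown heads had 115.8, 122.9 and 124.0 CPM. Control replicate 3 lay above all 3 knockdown libraries while the other control libraries lay below them. The log2 fold change was 0.46 (SE 0.24, adjusted p 0.301 by edgeR) and became 0.82, with an adjusted p of 0.0040 and a call, without control replicate 3. Its exons share 144 bases with those of Adgf-D and f-cup on the opposite strand, which had log2 fold changes of 0.22 and -0.13 in the neuron-specific knockdown and of -0.08 each in the glia-specific knockdown.

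ninaG (FBgn0037896; chromosome 3R, 11419376 to 11421693, minus strand) fell in the glia-specific knockdown. The repo control heads had 45.1, 39.2 and 46.0 CPM and the knockdown heads 25.3, 26.1 and 28.3 CPM, with the highest knockdown library below the lowest control. The log2 fold change was -0.69 (SE 0.10), a level 1.61-fold lower, with an edgeR adjusted p of 0.0197. The size lay between -0.76 and -0.64 over the alternative fits, but the call was lost without control replicate 1 (adjusted p 0.0809) and without knockdown replicates 1, 2 or 3 (adjusted p 0.101, 0.0954 and 0.0753). In the elav control heads ninaG was at 54.0, 47.8 and 57.8 CPM and in the neuron-specific knockdown at 56.0, 45.8 and 50.5 CPM, with overlapping groups, a log2 fold change of -0.07 (SE 0.11) and an adjusted p of 0.795 by edgeR. The neuron-specific change exceeded the glia-specific one by 0.61 (SE 0.15) on the log2 scale in the 12-library fit, with an edgeR adjusted p of 0.0447. That difference lost its call under 12 of 18 alternatives, with sizes of 0.53 to 0.68.

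rdhB (FBgn0038946; chromosome 3R, 22351696 to 22356264, plus strand) encodes a short-chain dehydrogenase of retinal pigment cells. In the elav control heads it was at 39.1, 41.5 and 36.9 CPM and in the neuron-specific knockdown at 140.6, 118.1 and 169.2 CPM. The lowest knockdown library was far above the highest control, and the highest was the replicate 3 library with high muscle genes. The fold change was 3.62, and on the log2 scale 1.86 (SE 0.14). Without knockdown replicate 3 it was 1.72 on the log2 scale. In the repo heads rdhB was at 27.2, 32.2 and 54.6 CPM in the controls, against 78.2, 93.6 and 91.7 CPM in the glia-specific knockdown. Control replicate 3, the other library with high muscle genes, was the highest control and still below every knockdown library. The fold change was 2.34, and on the log2 scale 1.23 (SE 0.26), or 1.59 without that control library. The neuron-specific change was larger by 0.63 (SE 0.31) on the log2 scale, and by 0.12 without the 2 libraries with high muscle genes. The control heads of the drivers had a log2 difference of -0.06 (SE 0.22).

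pinta (FBgn0038966; chromosome 3R, 22423316 to 22424929, minus strand) encodes the retinoid-binding protein of the pigment cells. It was at 68.4, 60.4 and 59.5 CPM in the elav control heads and at 71.9, 67.0 and 50.6 CPM in the neuron-specific knockdown. Those groups overlapped, and the log2 fold change was 0.00 (SE 0.14, adjusted p 0.997 by edgeR). In the repo control heads it was at 31.4, 44.3 and 40.8 CPM, against 57.9, 60.3 and 50.2 CPM in the glia-specific knockdown, without overlap. The log2 fold change there was 0.55 (SE 0.15), with an adjusted p of 0.0850 by edgeR and 0.0248 by DESeq2, and at 1.46-fold it was under the fold threshold by both. The difference between the drivers in the change of pinta was -0.55 (SE 0.22) on the log2 scale, with an edgeR adjusted p of 0.184.

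**Figure D3:**
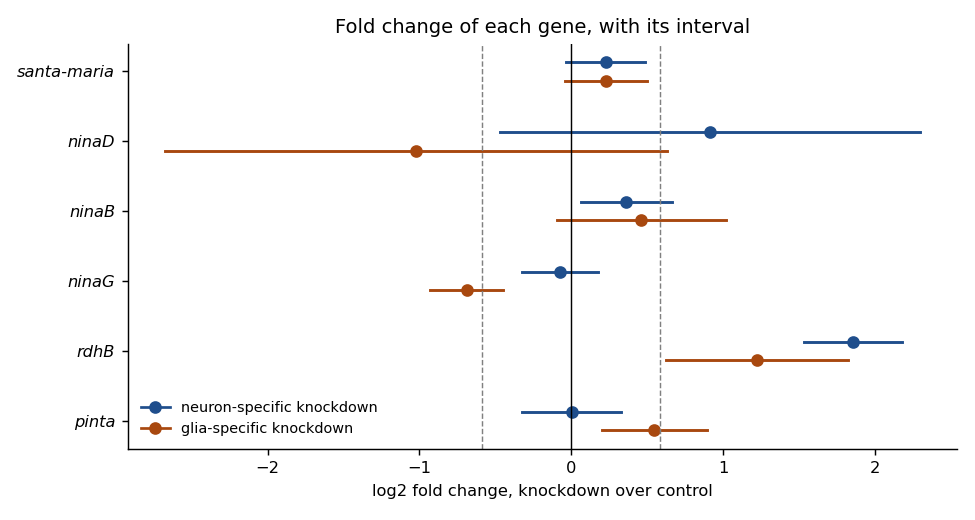
Log2 fold change of knockdown over control for each gene, as points with 95% intervals from edgeR, for the neuron-specific (blue) and glia-specific (brown) knockdown, with dashed lines at a 1.5-fold change. rdhB is drawn at 1.86 and 1.23 as a description, and its intervals do not allow for the choice of the list by its values. The interval of ninaG lies below 0 for the glia-specific knockdown alone, and those of ninaD are the widest of the 6 genes, from -0.47 to 2.30 and from -2.67 to 0.63.

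Apart from rdhB, whose values prompted the choice of the list and which is left out of the counts here, 0 of the 5 other genes were called in the neuron-specific knockdown by edgeR and 0 by DESeq2, where edgeR called 0.160% of all 9983 genes tested (8 higher and 8 lower). At an unadjusted p under 0.05 there was 1 of the 5, ninaB, against 14.4% of all genes, and the median log2 fold change was 0.23 against 0.00 for all genes. ninaB was also the 1 gene of the 5 whose libraries did not overlap, against 21.4% of all genes. The glia-specific knockdown gave 0 of the 5 called higher and 1 lower, ninaG, where 3.60% of 9951 genes were called (266 higher and 92 lower). At an unadjusted p under 0.05 there were 2 of the 5, ninaG and pinta, against 22.3% of all genes. Here the median was 0.23 against -0.02, and the libraries did not overlap for 3 of the 5, against 29.9% of all genes. ninaG was the 1 of the 5 called in the test of the difference between the knockdowns, against 3.01% of 10257 genes.

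Between the control heads of the drivers, pinta was the 1 gene of the 6 called, against 4.78% of 10257 genes. It was lower in the repo control heads, with a log2 difference of -0.71 (SE 0.15), or 1.63-fold, and an edgeR adjusted p of 0.0198. The adjusted p was above 0.05 when elav control replicates 1, 2 or 3 or repo control replicate 1 were left out, with values of 0.0897, 0.0556, 0.0600 and 0.0551. ninaG was also lower in every repo control library than in every elav one, by 0.31 (SE 0.10) on the log2 scale, with an adjusted p of 0.0938. The libraries did not overlap for these 2 of the 6 genes, against 26.9% of all genes. Over the same contrast the white gene w, a marker carried by many fly transgenes, was at 23.9 CPM in the elav and 125.7 CPM in the repo controls. The clock gene tim was at 92.2 and 532.0 CPM, and of 8 clock genes 4 were called higher and 1 lower in the repo controls. Driver, genetic background and time or batch of collection cannot be told apart in this contrast.

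Of 7 other genes of carotenoid and retinoid handling, 0 were called in the neuron-specific knockdown by edgeR and 0 by DESeq2, where edgeR called 0.160% of all genes. At an unadjusted p under 0.05 there was 1 of the 7, against 14.4% of all genes, and their median log2 fold change was 0.06. Pdh, the other pigment cell retinol dehydrogenase, was at a mean of 1275 CPM in the elav control heads and 1792 CPM in the knockdown, a log2 fold change of 0.48 (SE 0.12) with an edgeR adjusted p of 0.173. In the repo heads its means were 1052 and 1001 CPM. Under repo-GAL4, Apoltp, which encodes a lipid transfer particle of the haemolymph, rose in the knockdown from 660.8 to 1289 CPM, with a log2 fold change of 0.98 (SE 0.18) and an adjusted p of 0.0359 by edgeR. It was the 1 gene of 7 called by edgeR, and the list's median was -0.05, with 3 genes higher and 4 lower. DESeq2 called 2, and 4 of the 7 had an unadjusted p under 0.05, against 22.3% of all genes. The largest change of the list was that of apolpp, named after its values were seen. The mean of apolpp went from 3319 CPM in the repo controls to 8670 CPM in the knockdown, with an edgeR adjusted p of 0.0697. Fat body genes, a list that includes both Apoltp and apolpp, summed to 5380 to 12030 CPM in the repo controls and to 15540 to 22710 CPM in the knockdown. The sum thus holds these same genes. Of the 7 fat body genes tested, 5 were higher and 2 lower in the knockdown. Apoltp was called higher by edgeR and Obp99b lower, the latter at a log2 fold change of -2.62 (SE 0.23, adjusted p 0.0097). The part of fat body RNA in the Apoltp and apolpp values was not tested.

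Among the other members of the CD36 family, relatives of ninaD and santa-maria, 11 of 12 passed the filter. edgeR called 0 in either knockdown, against 0.160% of all genes in the neuron-specific and 3.60% in the glia-specific knockdown. DESeq2 called 0 of them in the neuron-specific and 2 in the glia-specific knockdown, where it called 278 and 698 of all genes. The numbers with an unadjusted p under 0.05 came to 2 and 3, against 14.4% and 22.3% of all genes. The largest changes in the glia-specific knockdown were those of CG2736, at 1.06 (SE 0.27, adjusted p 0.0778), and CG3829, at 0.73 (SE 0.19, adjusted p 0.0797 by edgeR). With the neuron driver Snmp2 had a log2 fold change of -0.51 and CG40006 of 0.37, with adjusted p of 0.306 and 0.272.

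The rhodopsins and their maturation factors, which receive the chromophore, were 8 of 10 lower in the glia-specific knockdown, with a median of -0.19. The 1 gene called, ninaA, encodes the cyclophilin that carries the main rhodopsin out of the endoplasmic reticulum. It fell from 95.3 to 100.6 CPM in the repo control libraries to 27.9 to 34.0 CPM in the knockdown libraries, a log2 fold change of -1.64 (SE 0.10) with an edgeR adjusted p of 0.0051. Of 20 photoreceptor genes, 20 had a lower level in the glia-specific knockdown, with a median of -0.32 beside -0.02 for all genes, and inaD, the scaffold of the phototransduction complex, was the 1 called. It was at 602.9 CPM in the controls and 321.2 CPM in the knockdown (log2 fold change -0.89, SE 0.15, edgeR adjusted p 0.0258). The 2 groups did not overlap for inaD, but for some others they did, with widely spread repo controls. For eys the controls had 245.0 to 709.4 CPM and the knockdown 243.2 to 292.8 CPM. For Calx they had 194.5 to 421.2 CPM and 235.8 to 236.0 CPM. The list summed to 34510 to 40170 CPM in the repo controls and to 29710 to 32790 CPM in the knockdown, so the fall of ninaG was accompanied by a lower sum of photoreceptor RNA. The part of that in the ninaG value was not tested. The 1 gene called by edgeR in each list stands beside 3.60% of all genes in the glia-specific knockdown, and DESeq2 called 1 and 2. At an unadjusted p under 0.05 there were 4 of the 10 and 7 of the 20, against 22.3% of all genes. In the neuron-specific knockdown 0 of the 10 rhodopsin genes and 0 of the 20 photoreceptor genes were called by edgeR, against 0.160% of all genes. There 1 and 3 had an unadjusted p under 0.05, against 14.4% of all genes, and DESeq2 called 0 and 1. The medians were 0.06 and 0.03.

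Eye pigment genes, markers in part of the pigment cells where rdhB and pinta act, gave 2 called higher of 19 in the glia-specific knockdown, against 3.60% of all genes called, with 13 of the 19 higher, 6 lower and a median of 0.13. DESeq2 called 3. The called genes were cd, at a log2 fold change of 0.90 (SE 0.19, edgeR adjusted p 0.0460), and lt, at 0.62 (SE 0.13, adjusted p 0.0491). The change of largest size ran the other way: se, named after its values were seen, went from a mean of 24.9 to 8.21 CPM, a log2 fold change of -1.58 (SE 0.41) with an adjusted p of 0.0810 by edgeR and 0.00089 by DESeq2. With the neuron driver edgeR and DESeq2 called 0 of the 19, where edgeR called 0.160% of all genes. There 3 of the 19 had an unadjusted p under 0.05, against 14.4% of all genes, and the median was 0.10. The largest there were se at 0.67 and Pu at 0.57, with adjusted p of 0.244 and 0.376.

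**Figure D4:**
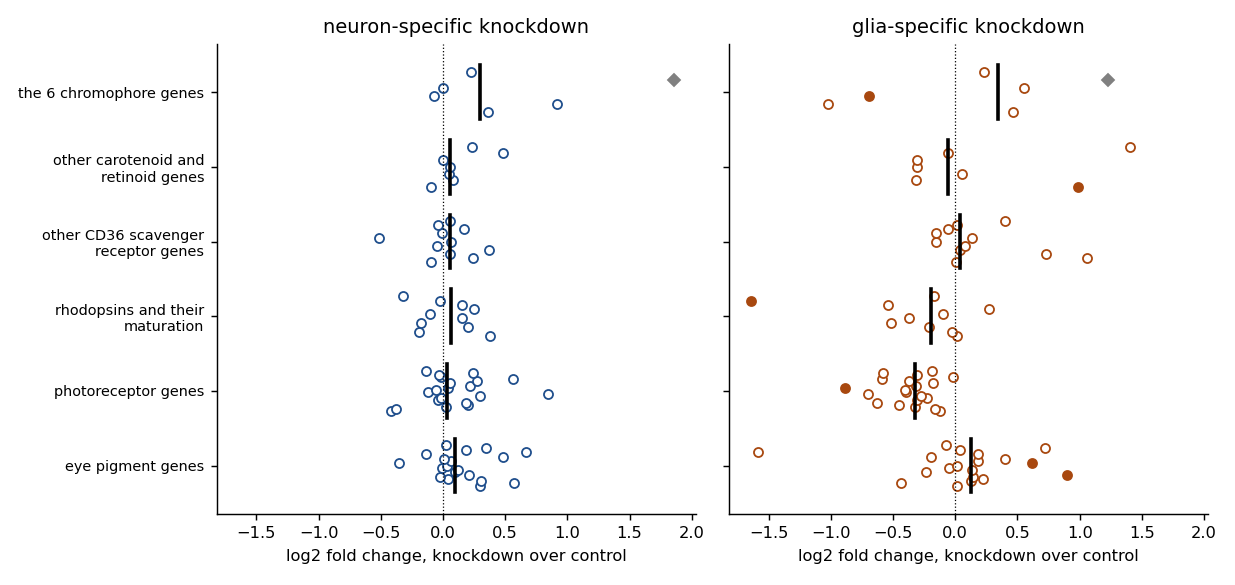
Log2 fold change of every tested gene of the 6 chromophore genes and 5 related lists in the neuron-specific (left) and glia-specific (right) knockdown. Filled circles are called genes, the diamond is rdhB, and the black bar is the median of a list, which for photoreceptor genes is 0.03 on the left and -0.32 on the right.

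The genes most like each of the 6 across the 12 libraries were listed by the Pearson correlation of log2 CPM, as a description over libraries that share groups. For ninaG they were ninaA at 0.96, CG34208 at 0.96 and inaD at 0.95. ninaA and inaD were the called genes of the rhodopsin and photoreceptor lists in the glia-specific knockdown, where ninaG fell too. Their correlation with ninaG includes that shared group difference and adds nothing to the calls. For rdhB they were Su(P) at 0.96, CG4210 at 0.94 and CG8757 at 0.93. pinta was most like CG9008, CG6834 and psh, ninaB like ogre, CG10226 and Cdk4, ninaD like CG8630, AQP and CG1674, and santa-maria like CG33228, ogre and Gip. Among the 6 genes themselves, rdhB correlated with ninaB at 0.83 and with santa-maria at 0.82 over the 12 libraries, but with ninaG at -0.17 and with pinta at 0.45. After the group means were removed, rdhB and ninaB correlated at 0.97, and ninaB and ninaD at 0.89. The 2 libraries with high muscle genes held the highest ninaB, ninaD and rdhB values of their groups.

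pinta and rdhB lie on the same chromosome arm, 73.2 kb apart by their starts. In a window of 100 kb on either side of the rdhB start, chosen after values were seen, 42 other genes were in the table and 22 passed the filter. Neuron-specific knockdown gave 0 called by edgeR among the 22, 4 had an unadjusted p under 0.05 (14.4% of all genes did), and the median log2 fold change was 0.07, with a range of -1.02 to 0.65. With the glia driver 3 were called, Nop56 at 1.31, CG12499 at 1.08 and CG34377 at -0.86, against 3.60% of all genes, and the median was 0.05. Sar1, the nearest tested gene to rdhB at 4.99 kb, had log2 fold changes of 0.07 and 0.01.

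**Figure D5:**
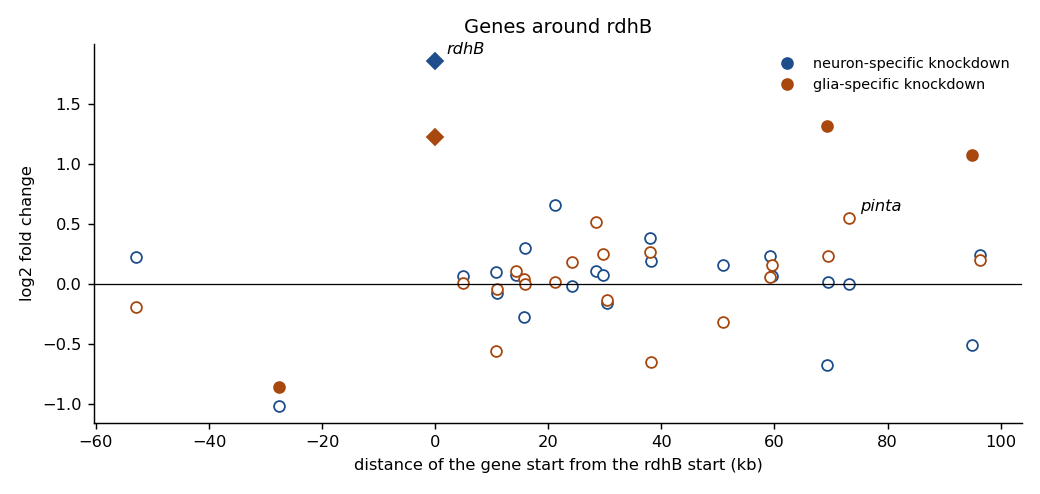
Log2 fold change of knockdown over control for tested genes within 100 kb of rdhB, against the distance of the gene start from the rdhB start in kb, for the neuron-specific (blue) and glia-specific (brown) knockdown. Filled circles are called genes. The diamonds at 0 kb are rdhB at 1.86 and 1.23, drawn as a description with no test, beside Sar1 at 0.07 and 0.01 at 4.99 kb.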

How the data were processed

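Poly(A) RNA of fly heads was prepared as stranded libraries. The authors trimmed reads with seqtk, aligned them with Bowtie2 to BDGP Release 6 (dm6) and deposited raw counts per FlyBase gene. Bowtie2 does not split reads across introns, which can lower counts at exon junctions. The counting tool and its strand setting were not given in the sources used here. The authors also deposited 2 result tables of their own comparisons (mean normalized counts, fold changes, standard errors, Wald statistics and p-values), which were not used here.

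Counts were fitted with edgeR 4.0.16 under R 4.3.3: filterByExpr by group, TMM and two-sided quasi-likelihood F tests, over 6 libraries for a knockdown and 12 for the differences between drivers and between controls. DESeq2 1.42.0, other scalings and filters, a replicate block and leaving out libraries were alternatives. Leaving out both libraries with high muscle genes was chosen after seeing the data. Groups came from the sample labels. Replicates of a group differed by more than counting noise, and the 3 libraries of a group, not depth, set the precision. Samples of a group are labelled as biological replicates, with no culture or day given.

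Symbols were known for 17599 of 17737 identifiers. Coordinates, exon lengths and overlaps came from the Ensembl annotation of BDGP Release 6. The 6 genes and the gene lists were chosen with earlier results of these data known. The text names each of the 6 genes, up to 3 called members of a list or otherwise its 2 largest changes, and the 3 genes most like each of the 6. Replicate numbers were checked as pairs and are only shared numbers. Scripts were tested on simulated data.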

Additional observations from a re-analysis of the deposited data

Results flagged for a closer look

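The fall of ninaG differed between the drivers. Its log2 fold change was -0.69 in the glia-specific knockdown and -0.07 in the neuron-specific knockdown, and the neuron-specific minus glia-specific difference was 0.61 (SE 0.15) with an edgeR adjusted p of 0.0447. DESeq2 gave an adjusted p of 0.0070 for it. The call was lost with the replicate block (adjusted p 0.0525), without the 2 libraries with high muscle genes (adjusted p 0.0808), and when any one library was left out other than replicate 2 of the neuron-specific knockdown or replicate 2 of the repo controls.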

How the results depend on the processing

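Of 360 fold changes of the 6 genes under alternatives, 300 kept their direction and side of the threshold, 30 lost a call, 2 gained one and 28 changed sign. No sign change involved a called value. The causes of these changes were not tested unless fewer libraries are named. rdhB stayed between 1.72 and 1.98 in the neuron-specific and between 1.02 and 1.59 in the glia-specific knockdown. A call of rdhB carries no weight here, since its values prompted the choice of the list. In the neuron-specific knockdown it was lost under 4 of 12 alternatives (replicate block and each elav control left out). In the glia-specific knockdown it was lost under 6 of 12 (RLE, repo controls 1 and 2 and each knockdown library left out). ninaG stayed between -0.76 and -0.64 in the glia-specific knockdown.

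Genes called in the neuron-specific knockdown (16) became 278 with DESeq2, 49 without a filter, 30 in the 12-library fit and 1 to 199 with 1 library left out. In the glia-specific knockdown (358) they became 698, 538 in the 12-library fit and 3 to 676, in the difference between drivers (309) 686 with DESeq2 and 130 to 485, and between controls (490) 202 to 608, with 791 without the 2 libraries with high muscle genes. Of the 6 genes, rdhB included, 0 to 1 were called in the neuron-specific, 0 to 3 in the glia-specific knockdown, 0 to 1 in the difference and 0 to 1 between controls with 1 library left out, and 1 in the glia-specific knockdown with RLE size factors. The calls of rdhB among these carry no weight, for the reason given above.

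Signs turned mainly for values near 0. With 1 library left out, pinta in the neuron-specific knockdown ran from -0.10 to 0.14 and ninaD from -0.19 to 1.26, and ninaD in the glia-specific knockdown from -1.42 to 0.31. In the difference between drivers ninaB ran from -0.45 to 0.0626 and santa-maria from -0.0831 to 0.0931. Between controls rdhB ran from -0.42 to 0.14, ninaB from -0.51 to 0.0016, ninaD from -0.43 to 1.30 and santa-maria from -0.0786 to 0.0908. In the difference santa-maria was 0.00076 with RLE, 0.0010 with DESeq2 and 0.0210 without a filter, and between controls 0.0097 without a filter. Without the 2 libraries with high muscle genes ninaD was -0.50 in the difference and -0.43 between controls, and ninaB in the difference was called at -0.60 (adjusted p 0.0237).

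The replicate numbers are only shared numbers: the deviations of same-numbered libraries correlated at -0.05 to -0.00 for elav and -0.15 to 0.15 for repo. The replicate block gave 2 genes called in the neuron-specific and 212 in the glia-specific knockdown, 0 of the 6 genes in the neuron-specific knockdown and in the difference, and -0.0101 for pinta in the neuron-specific knockdown.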
